A study of Mus musculus with 15 samples.

Results

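The UCH (ubiquitin C-terminal hydrolase) family is a small group of deubiquitinases, and its members Uchl1, Uchl3, Uchl5 and Bap1 were followed here in cardiomyocytes that carried an AAV vector for GFP, ATF4 or DDIT3. The 4 genes were taken by their symbols from a table of 23337 genes, and all 4 passed the filter on low counts that left 11814 genes to be tested. Uchl1 was chosen by its measured level in these same libraries, which was higher with ATF4 and DDIT3 than with GFP, so its levels are a description with no test. Uchl3, Uchl5 and Bap1 were taken in by gene family and were tested.

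Deubiquitinases are proteases that cut ubiquitin off proteins or process ubiquitin precursors. The UCH enzymes are cysteine proteases that share 1 catalytic fold. UCHL1 is one of the most abundant proteins of neurons and neuroendocrine cells, binds free ubiquitin and is used by pathologists as a nerve marker. UCHL3 also acts on the ubiquitin-like modifier NEDD8. UCHL5 works on the proteasome, where it is held by ADRM1, and also sits in the INO80 chromatin remodelling complex. BAP1 is a nuclear tumour suppressor that removes ubiquitin from a core histone together with the ASXL proteins. In adult heart muscle UCHL1 is normally low, and it is known to rise in diseased hearts.

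Each of the 3 groups held 5 libraries of FACS-purified cardiomyocytes from hearts of 4-week-old Rosa-Cas9GFP mice, so that all animals, controls included, carried the Cas9 and GFP transgene. The control group had received AAV-GFP on postnatal day 1. The other groups had received AAV-ATF4-2A-GFP or AAV-DDIT3-2A-GFP on the same day. ATF4 is the main transcription factor of the integrated stress response, and DDIT3 (CHOP) is a transcription factor of endoplasmic reticulum stress. The labels name neither the promoter of the vectors nor the animal behind each library, so a p-value reflects only how far the libraries spread, which may be technical.

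The family members lie apart in the genome (mm10, GENCODE). Uchl1 (ENSMUSG00000029223.12) spans chromosome 5, 66676091 to 66687234, on the plus strand, with 9 exons in its main transcript. Uchl3 lies on chromosome 14 from 101653967 to 101696125 (9 exons), Bap1 on chromosome 14 from 31251450 to 31259944 (17 exons), and Uchl5 on chromosome 1 from 143777272 to 143807466 (11 exons), all on the plus strand. An antisense gene, Uchl1os, runs from 66626495 to 66676498 on the minus strand of chromosome 5, and its exons cover 244 of the 1177 exonic bases of the main Uchl1 transcript (20.7%). The library kit is not stated to mark strand, so reads from that overlap cannot be told apart, and Uchl1os itself was not analysed here.

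The stretch just before the annotated starts of Uchl1 is shown beside that of Uchl5, chosen because the windows differ in CpG content. Neither Uchl5 nor Uchl3 passed the test in any comparison. The sequences are from RefSeq (GRCm38.p6, plus strand), ending before the first annotated start in RefSeq or GENCODE, and capitals mark CG dinucleotides. The Uchl1 stretch is chr5:66675871-66676090 and the Uchl5 stretch is chr1:143777028-143777233.
Uchl1: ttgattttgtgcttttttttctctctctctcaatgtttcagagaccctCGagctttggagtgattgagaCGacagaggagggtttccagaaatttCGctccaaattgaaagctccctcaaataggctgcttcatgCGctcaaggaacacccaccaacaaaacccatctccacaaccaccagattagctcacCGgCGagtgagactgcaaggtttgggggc
Uchl5: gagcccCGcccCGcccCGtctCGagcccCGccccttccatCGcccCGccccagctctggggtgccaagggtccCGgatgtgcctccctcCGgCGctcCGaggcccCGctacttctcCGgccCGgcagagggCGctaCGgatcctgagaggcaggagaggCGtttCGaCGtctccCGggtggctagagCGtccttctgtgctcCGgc

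The 220 bases of Uchl1 held 6 CG dinucleotides and were 48.2% G or C, whereas the 206 bases of Uchl5 held 22 and were 73.3% G or C. The like stretch of Uchl3, 175 bases, was closer to Uchl1, with 8 CG dinucleotides and 51.4% G or C. Over windows of 250 bases before the RefSeq start, G or C content was 48.8% for Uchl1, 54.0% for Uchl3, 74.0% for Uchl5 and 74.4% for Bap1, against a median of 52.4% over 32851 such windows. The Uchl1 window held 7 CG dinucleotides, against a median of 6, and 57% of all windows held no more. A relation of CpG content to the levels was not tested. The windows of all 4 members were searched on both strands for TGATGNAA, the core of the composite element bound by ATF4 with C/EBP partners, for the cyclic AMP element TGACGTCA and for the C/EBP-type sequence TTGCNNAA. None of the 4 windows held a match. Of all windows, 3.45% held the first motif, 1.55% the second and 9.56% the third. No match says only that these letters were not in these windows.

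The libraries held between 6217744 and 8317249 counts. Both vector genes were raised where they were delivered. Atf4 stood at 351.3 to 537.9 CPM (the usual counts per library total, scaled by TMM factors) in the ATF4 libraries against 51.3 to 82.1 CPM in GFP. Ddit3 stood at 663.9 to 1073 CPM in the DDIT3 libraries against 13.4 to 16.6 CPM in GFP. Ddit3 was also higher in the ATF4 libraries, at 21.7 to 38.5 CPM (log2 fold change 0.91 ± 0.17 against GFP, edgeR adjusted p = 0.00061). Atf4 in the DDIT3 libraries differed from GFP by -0.10 ± 0.20 (edgeR adjusted p = 0.946). All 10 cardiomyocyte markers looked for, from Myh6 to Ttn, were detected in every group, and their summed level was 106000 to 171000 CPM over the 15 libraries. Of these 10 markers 6 were lower in ATF4 than in GFP (edgeR adjusted p below 0.05), where 15.6% of all tested genes were. SMART-Seq3 is the method named for GFP replicate 5, and SMART-Seq2 that for the other 14 libraries. Replicate 2 of ATF4 and replicate 2 of DDIT3 stood apart in an earlier principal component analysis, and without both the log2 fold change of Uchl1 was 4.43 for ATF4 and 1.38 for DDIT3 against GFP.

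As a background for the members, edgeR called 32.2% of all tested genes in ATF4 against GFP (16.5% higher, 15.6% lower), 0.863% in DDIT3 against GFP (0.525% higher, 0.339% lower) and 33.8% in ATF4 against DDIT3 (17.8% higher, 16.0% lower). The groups did not overlap for 21.4% of genes in the first comparison (11.7% higher, 9.79% lower), 2.86% in the second (1.68% higher, 1.18% lower) and 22.6% in the third (12.3% higher, 10.3% lower).

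Uchl1 was the member that differed most between the vectors: low in GFP, intermediate in DDIT3 and high in ATF4. In the GFP libraries Uchl1 stood at 6.44, 5.08, 5.21, 6.98 and 4.43 CPM for replicates 1 to 5. In the DDIT3 libraries it stood at 16.9, 16.5, 13.8, 13.8 and 14.3 CPM. In the ATF4 libraries it stood at 133.2, 109.5, 125.2, 126.3 and 105.8 CPM. The lowest DDIT3 library lay above the highest GFP library, and the lowest ATF4 library lay above the highest DDIT3 library, so that the 3 groups did not overlap. Among all tested genes, groups separated in this direction in 11.7% for ATF4 against GFP, 1.68% for DDIT3 against GFP and 12.3% for ATF4 against DDIT3.

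The group means of Uchl1 were 5.63 ± 1.05 CPM in GFP, 15.1 ± 1.55 CPM in DDIT3 and 120.0 ± 11.8 CPM in ATF4 (SD, n = 5). The edgeR log2 fold change was 4.40 ± 0.13 for ATF4 against GFP, 1.41 ± 0.13 for DDIT3 against GFP and 2.99 ± 0.12 for ATF4 against DDIT3 (SE, no test). On the linear scale these are a 21.2-fold, a 2.66-fold and a 7.96-fold higher level. The comparisons of both vectors with GFP share the same control libraries. By fold change Uchl1 ranked 89th from the top of 11814 genes in ATF4 against GFP and 46th in DDIT3 against GFP. In the authors' deposited tables the log2 fold change of Uchl1 was 4.38 for ATF4 and 1.41 for DDIT3.

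Uchl1 was counted at 28 to 53 reads in each GFP library, 202 in all, which limits the precision of its control level. Its coefficient of variation there was 18.6%, where counting alone would give 15.7%. In DDIT3 the values were 10.3% and 9.25%, and in ATF4 9.80% and 3.36%. Within the ATF4 group the library with the highest Atf4 was replicate 2, which stood apart, at 537.9 CPM. It held 109.5 CPM of Uchl1. Replicate 1, with 398.3 CPM of Atf4, had the highest Uchl1, 133.2 CPM. Replicates 3, 4 and 5 held 351.3, 359.6 and 352.3 CPM of Atf4 and 125.2, 126.3 and 105.8 CPM of Uchl1. Whether Uchl1 follows Atf4 within the group was not tested.

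**Figure D1:**
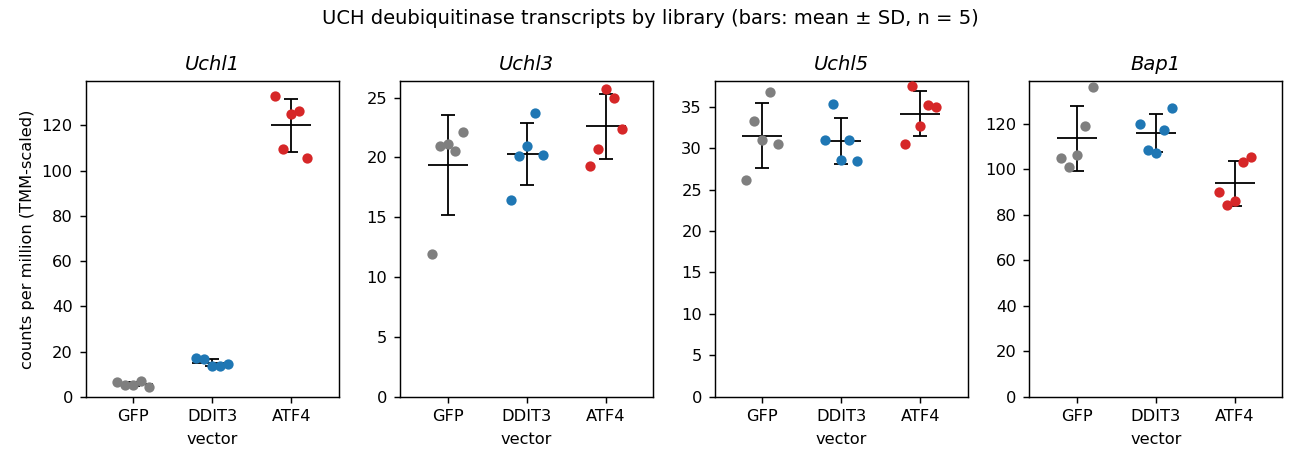
Level of the 4 family members in each library (points, CPM on a linear axis from 0) by vector, with the mean and SD of 5 libraries as bars. Uchl1 rises from 5.63 CPM in GFP over 15.1 CPM in DDIT3 to 120.0 CPM in ATF4 without overlap, while Uchl3 and Uchl5 overlap between all groups and Bap1 is lower in ATF4 than in DDIT3.

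Scaled to gene length, so that levels can be compared between genes, the make-up of the family differed between the groups. In GFP, Bap1 was the most abundant member at 33.3 ± 4.21 CPM per kb, followed by Uchl3 at 20.8 ± 4.50 and Uchl5 at 17.0 ± 2.10, and Uchl1 was the lowest at 4.91 ± 0.915 CPM per kb (SD, n = 5). The SD ranges of Uchl3 and Uchl5 overlapped. In DDIT3 the order was the same, with Uchl1 at 13.1 ± 1.35 and Uchl5 at 16.7 ± 1.52 CPM per kb. In ATF4, Uchl1 came first at 104.6 ± 10.3 CPM per kb, above Bap1 at 27.5 ± 2.91, Uchl3 at 24.3 ± 2.95 and Uchl5 at 18.5 ± 1.45. The SD ranges of Bap1 and Uchl3 overlapped there.

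Uchl1 made up 6.55 ± 1.61% of the summed length-scaled level of the 4 genes in GFP, 15.3 ± 1.63% in DDIT3 and 59.7 ± 3.32% in ATF4. The sum itself was 76.0 ± 8.29 CPM per kb in GFP, 85.7 ± 2.76 in DDIT3 and 174.9 ± 10.02 in ATF4. Without Uchl1 the sum of the other members was 71.1 ± 8.58, 72.5 ± 3.04 and 70.3 ± 5.03 CPM per kb. Bulk libraries cannot tell more transcripts per cell from more cells that make them.

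**Figure D2:**
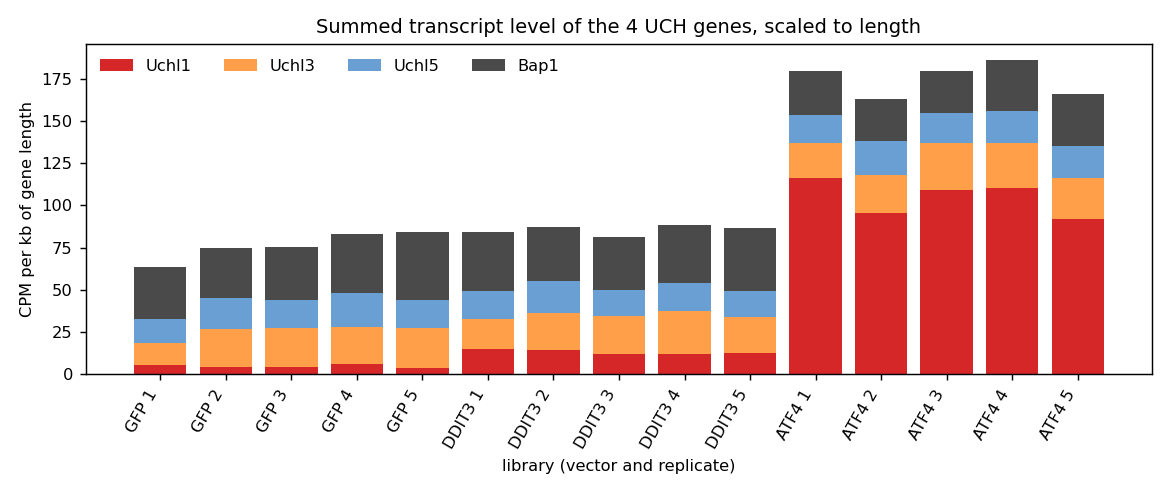
Length-scaled level (CPM per kb) of the 4 UCH genes stacked for each of the 15 libraries. The Uchl1 part takes 59.7% of the bar on average in ATF4 and 6.55% in GFP, and the summed height of the other 3 parts is 71.1 CPM per kb in GFP and 70.3 in ATF4.

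Among all 76 deubiquitinases tested (the 4 UCH genes and 72 of other families), the length-scaled level of Uchl1 ranked 50th in GFP, 35th in DDIT3 and first in ATF4. In ATF4 it stood above Usp28, the top deubiquitinase of GFP at 93.1 CPM per kb there, and Usp13, the top of DDIT3 at 85.0 CPM per kb there, both named after their values were seen. Uchl1 took 0.346 ± 0.0698% of the summed level of the 76 transcripts in GFP, 0.919 ± 0.117% in DDIT3 and 6.90 ± 0.720% in ATF4 (SD, n = 5). By fold change it was also the highest of the 76 in each of the 3 comparisons.

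Since Uchl1 is a nerve marker, the levels of 17 neuron and neuroendocrine markers were set beside it. Of the 17, 3 passed the filter on low counts. Tubb3 passed it through ATF4 alone and Dbh through GFP and DDIT3, the groups where each is high, so both are given as levels with no test. Tubb3, the neuronal beta-tubulin, had 2 counts over all GFP libraries and 4 over all DDIT3 libraries, but 957 in ATF4, where its level was 14.1 to 33.0 CPM. Dbh, which makes noradrenaline in sympathetic nerves, stood at 5.30 ± 0.997 CPM in GFP, 5.10 ± 1.83 CPM in DDIT3 and 0.830 ± 0.443 CPM in ATF4 (SD, n = 5). Stmn2, a neuronal microtubule regulator, stood at 2.03 ± 0.803 CPM in GFP and 1.80 ± 0.907 CPM in ATF4 (edgeR adjusted p = 0.767).

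The other 15 neuron markers, Stmn2 included, summed to 3.22 to 4.75 CPM in GFP, 1.94 to 3.90 in DDIT3 and 2.78 to 6.22 in ATF4. The medians were 4.30 CPM in GFP, 2.77 in DDIT3 and 2.995 in ATF4. ATF4 replicates 1, 2 and 4 lay below every GFP library, replicate 3 lay within the GFP range and replicate 5 above it. Within the list, Nefm had 23 counts in ATF4, 3 in GFP and 1 in DDIT3. Syp had 26, 41 and 29 counts in the same order, and Nefl 2, 7 and 6. Nefm, Syp and Nefl did not pass the filter and were not tested. Th, which makes the precursor of noradrenaline, was at 0 in all 15 libraries. Over their pooled total counts, without TMM scaling, this allows at most 0.0269 CPM (3 counts, counting error only). The limit for a single group or library is higher.

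A list of 8 Schwann cell and glial markers summed to 4.58 to 6.52 CPM in GFP, 4.04 to 6.90 in DDIT3 and 3.12 to 4.44 in ATF4. In DDIT3 against GFP, the edgeR adjusted p was 0.802 for Stmn2. Several markers of vessel cells were higher in ATF4 than in GFP. Of 14 endothelial markers 12 rose and 0 fell against GFP (85.7% called, against 32.2% of all tested genes), with a median log2 fold change of 0.87. Of 8 tested pericyte and smooth muscle markers 4 rose (Cspg4, Pdgfrb, Kcnj8 and Rgs5) and 0 fell, 50% called, with a median of 0.53. The summed endothelial level was 2860 to 3868 CPM in ATF4 and 2426 to 3055 CPM in GFP. Within ATF4, replicate 2 had the highest sum and 109.5 CPM of Uchl1, and replicate 3 the lowest sum and 125.2 CPM of Uchl1. In DDIT3 against GFP, 0 of these 14 passed edgeR, where 0.863% of all tested genes did (4 at an unadjusted p below 0.05, 0 with DESeq2). The median was -0.24. The part of vessel cells in the level of Uchl1 was not tested.

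**Figure D3:**
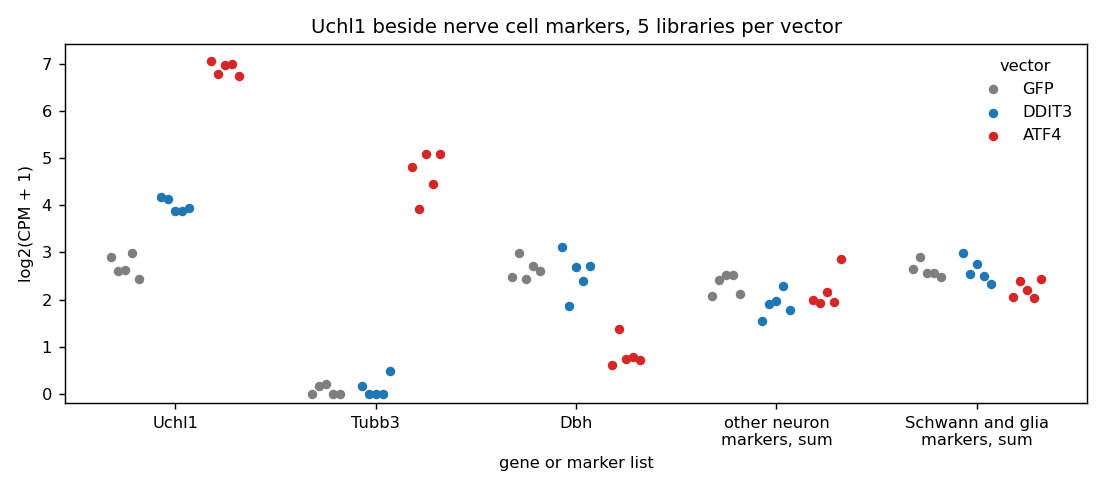
Uchl1, Tubb3, Dbh and the summed levels of the other neuron markers and of the Schwann and glial markers in each library, as log2(CPM + 1), coloured by vector. Tubb3 is near 0 in GFP and DDIT3 and at 14.1 to 33.0 CPM in ATF4, Dbh is lower in ATF4, and the other neuron markers sum to between 1.94 and 6.22 CPM in every library.

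The genes whose levels followed Uchl1 most closely over the 15 libraries (Pearson correlation of log2 CPM, a description that the difference between the groups dominates) were Trim47 (0.983), Acox2 (0.981), Hyal1 (0.980), Snx10 (0.978), Gdf15 (0.977) and Slc3a2 (0.976). Trim47, a RING-type ubiquitin ligase, stood at 17.9 ± 3.78 CPM in GFP, 31.1 ± 2.36 in DDIT3 and 178.1 ± 33.6 in ATF4. Hyal1, a lysosomal hyaluronidase, stood at 3.74 ± 0.447, 7.37 ± 1.96 and 153.2 ± 28.4 CPM. Slc3a2, the heavy chain of amino acid transporters, stood at 52.7 ± 3.12, 93.5 ± 39.4 and 902.2 ± 39.6 CPM (SD, n = 5). These 3 were, like Uchl1, lowest on average in GFP and highest in ATF4, an order that follows largely from their being picked by this correlation. Of the family, Uchl3 and Uchl5 had correlations with Uchl1 of 0.361 and 0.401, and Bap1 of -0.672, over the same libraries.

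Uchl3, the closest relative of Uchl1, did not pass the test in any comparison. It stood at 11.9, 21.0, 21.1, 20.5 and 22.1 CPM in GFP replicates 1 to 5, at 16.5, 20.1, 21.0, 23.7 and 20.2 CPM in DDIT3 and at 19.3, 20.7, 25.7, 24.98 and 22.4 CPM in ATF4. The groups overlapped, and GFP replicate 1 lay below all other libraries. The log2 fold change was 0.23 ± 0.16 for ATF4 against GFP (95% interval -0.10 to 0.55, edgeR adjusted p = 0.286) and 0.07 ± 0.16 for DDIT3 against GFP (-0.26 to 0.40, edgeR adjusted p = 0.953). ATF4 and DDIT3 differed by 0.16 ± 0.15 (-0.17 to 0.48, edgeR adjusted p = 0.474). Without GFP replicate 1 the difference of ATF4 from GFP was 0.09.

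Uchl3 has a near-identical copy in the mouse, Uchl4, a single-exon gene on chromosome 9 (64235201 to 64236362) that lies inside Map2k1 on the opposite strand. The 2 transcripts were identical in 828 of 860 aligned positions (96.3%), so the counting could have split reads between them and both values are uncertain. Uchl4 stood at 7.65 ± 1.48 CPM in GFP, 8.96 ± 0.424 in DDIT3 and 8.51 ± 2.03 in ATF4 and passed no test (edgeR adjusted p of 0.537 or more). The sum of both genes was 27.0 ± 5.50 CPM in GFP, 29.2 ± 2.22 in DDIT3 and 31.1 ± 4.65 in ATF4 (SD, n = 5).

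Of 7 genes of the NEDD8 pathway, on which UCHL3 also acts, 1 rose and 1 fell in ATF4 against GFP (28.6%, against 32.2% of all tested genes), and the median log2 fold change was -0.11. Uba3, the catalytic subunit of the NEDD8-activating enzyme, rose from 67.8 ± 10.6 to 137.8 ± 17.1 CPM (1.02 ± 0.14, edgeR adjusted p = 2.76e-05). Ube2m, the conjugating enzyme that takes NEDD8 from it, fell from 140.4 ± 9.59 to 104.7 ± 17.1 CPM (-0.42 ± 0.10, edgeR adjusted p = 0.00472). Nedd8 itself stood at 80.2 ± 8.86 CPM in GFP, 95.4 ± 5.72 in DDIT3 and 91.5 ± 12.9 in ATF4, and its difference from GFP passed the test for neither vector (edgeR adjusted p = 0.445 and 0.19). In DDIT3 against GFP, 0 of the 7 passed edgeR, where 0.863% of all tested genes did (1 at an unadjusted p below 0.05, 0 with DESeq2).

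Uchl5 did not pass the test in any comparison either. It stood at 26.1, 33.2, 30.9, 36.7 and 30.5 CPM in GFP, at 31.0, 35.4, 28.6, 31.0 and 28.4 CPM in DDIT3 and at 30.5, 37.5, 32.7, 35.2 and 34.9 CPM in ATF4. All groups overlapped. The log2 fold change was 0.12 ± 0.11 for ATF4 against GFP (95% interval -0.11 to 0.34, edgeR adjusted p = 0.442), -0.03 ± 0.11 for DDIT3 against GFP (-0.26 to 0.20, edgeR adjusted p = 0.972) and 0.15 ± 0.11 for ATF4 against DDIT3 (-0.08 to 0.37, edgeR adjusted p = 0.324). These intervals leave room for changes of up to 1.30-fold.

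Of 16 partners of UCHL5 on the proteasome and in the INO80 complex, 4 rose and 0 fell in ATF4 against GFP. These are 25% of the list, against 32.2% called over all tested genes, and the median log2 fold change was 0.20, against 0.024. They were Ino80, the ATPase of the complex (5.26 ± 1.14 to 10.7 ± 1.90 CPM, 1.02 ± 0.18, edgeR adjusted p = 2.87e-04), Ino80e, and the helicases Ruvbl1 and Ruvbl2, whose log2 fold changes were 0.56, 0.44 and 0.36. Adrm1, the ubiquitin receptor that docks UCHL5 on the proteasome, stood at 21.3 ± 2.70 CPM in GFP and 26.3 ± 4.40 CPM in ATF4 (0.30 ± 0.13, edgeR adjusted p = 0.0754). With a replicate block Adrm1 passed (0.30 ± 0.11, edgeR adjusted p = 0.0329). In DDIT3 against GFP, 0 of the 16 passed edgeR, where 0.863% of all tested genes did (3 at an unadjusted p below 0.05, 0 with DESeq2).

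Bap1 was lower in ATF4 than in the other groups, by a small margin. It stood at 105.0, 100.9, 106.3, 119.0 and 136.1 CPM in GFP, at 119.8, 108.5, 107.2, 117.0 and 126.9 CPM in DDIT3 and at 90.1, 84.3, 85.8, 103.2 and 105.5 CPM in ATF4. The ATF4 libraries all lay below the DDIT3 libraries, whereas the upper ATF4 libraries overlapped with GFP. The log2 fold change was -0.27 ± 0.10 against GFP (95% interval -0.49 to -0.06, edgeR adjusted p = 0.0492) and -0.31 ± 0.10 against DDIT3 (-0.52 to -0.09, edgeR adjusted p = 0.0284). Among all tested genes 32.2% passed in the first comparison and 33.8% in the second, and groups did not overlap in 22.6% in the second. For DDIT3 against GFP the difference was 0.03 ± 0.10 (-0.18 to 0.25, edgeR adjusted p = 0.970), where 0.863% of genes passed.

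The call of Bap1 against GFP was lost when any 1 of 10 libraries was left out (ATF4 replicates 1, 2 or 3, DDIT3 replicates 1, 2, 3 or 4, GFP replicates 3, 4 or 5), with edgeR adjusted p of 0.0522 to 0.143. The last of these is the value without GFP replicate 5, which had the highest Bap1 and the SMART-Seq3 label. Told by Xist and Y-linked transcripts, GFP held 3 male and 2 female libraries, and ATF4 and DDIT3 each 4 and 1. Sex was not in the main fit. Among male libraries alone, the log2 fold change of Bap1 against GFP was -0.12 (edgeR adjusted p = 0.471). The authors' deposited table gave -0.30 with an adjusted p of 0.0565. The call against DDIT3 was lost without ATF4 replicates 1, 2 or 3 or DDIT3 replicates 1 or 5 (edgeR adjusted p of 0.059 to 0.0701).

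**Figure D4:**
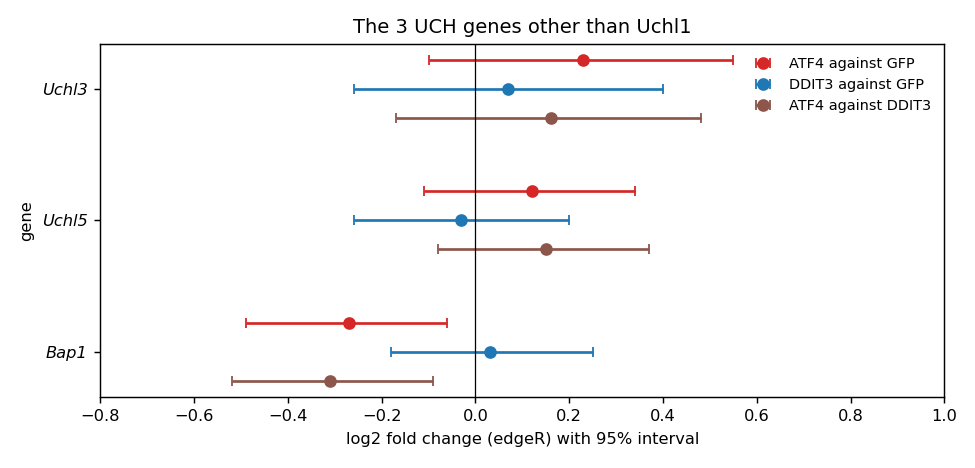
Log2 fold change of Uchl3, Uchl5 and Bap1 (rows) in the 3 comparisons (colours), with 95% intervals from edgeR. The intervals of Uchl3 and Uchl5 all cover 0, and those of Bap1 in ATF4 lie below 0, from -0.49 to -0.06 against GFP and from -0.52 to -0.09 against DDIT3.

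Of 9 tested partners of BAP1, 1 rose and 1 fell in ATF4 against GFP (22.2%, against 32.2% of all tested genes, with a median log2 fold change of 0.05). Kdm1b, a histone demethylase, rose from 28.8 ± 4.04 to 98.8 ± 20.5 CPM (1.78 ± 0.14, edgeR adjusted p = 3.13e-08). Foxk2, a forkhead factor that brings BAP1 to DNA, fell from 32.6 ± 10.2 to 19.2 ± 2.19 CPM (-0.76 ± 0.23, edgeR adjusted p = 0.0187). Asxl1 and Asxl2, which activate BAP1, differed by 0.18 ± 0.16 and -0.01 ± 0.13 (edgeR adjusted p = 0.408 and 0.956). In DDIT3 against GFP, 0 of the 9 passed edgeR, where 0.863% of all tested genes did (0 at an unadjusted p below 0.05, 0 with DESeq2).

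Against this family stood 72 tested deubiquitinases of other families, of 81 listed. In ATF4 against GFP 11 rose and 5 fell, so that 22.2% passed where 32.2% of all tested genes did, and their median log2 fold change was 0.01. The risers lay between 0.34 and 3.31 and the fallers between -0.34 and -0.67 on the log2 scale. Otub2, an OTU-type deubiquitinase, came closest to Uchl1, at 11.0 ± 2.68 CPM in GFP and 109 ± 15.6 CPM in ATF4 (3.31 ± 0.15, edgeR adjusted p = 1.14e-11). In DDIT3 it stood at 15.7 ± 1.83 CPM (0.51 against GFP, edgeR adjusted p = 0.173), and it passed when the fit carried a replicate block (0.53 ± 0.12, edgeR adjusted p = 0.0330).

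Of 13 OTU genes, Vcpip1, a partner of the p97 ATPase in Golgi assembly, rose (1.47 ± 0.15), as did Otud3 (0.58 ± 0.19), and Otud4 fell (-0.67 ± 0.13). Of 44 USP genes, the largest family, 5 rose and 3 fell. Usp36, a nucleolar enzyme, rose from 28.6 ± 3.39 to 66.0 ± 14.7 CPM (1.20 ± 0.14, edgeR adjusted p = 3.93e-06). Usp43, Usp16, Usp39 and Usp4 rose by log2 values of 1.75, 0.48, 0.40 and 0.34. The fallers were Usp25, Usp54 and Usp11 (-0.56, -0.62 and -0.62), and Usp39, Usp25 and Usp54 are named here after their values were seen. Of 15 genes of the Josephin, JAMM, MINDY and ZUFSP families, Fam188b (Mindy4, 1.29 ± 0.24), Fam63a (Mindy1, 0.52 ± 0.10) and Stambp (0.41 ± 0.13), an enzyme of endosomes, rose, and Fam63b (Mindy2, -0.34 ± 0.13) fell.

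In DDIT3 against GFP, 0 of the 72 passed edgeR, where 0.863% of all tested genes did (2 at an unadjusted p below 0.05, 0 with DESeq2). Their log2 fold changes ran from -0.60 to 0.51, and that of Uchl1 was 1.41. In ATF4 against DDIT3, 8 rose and 3 fell (15.3%, against 33.8% of all tested genes).

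**Figure D5:**
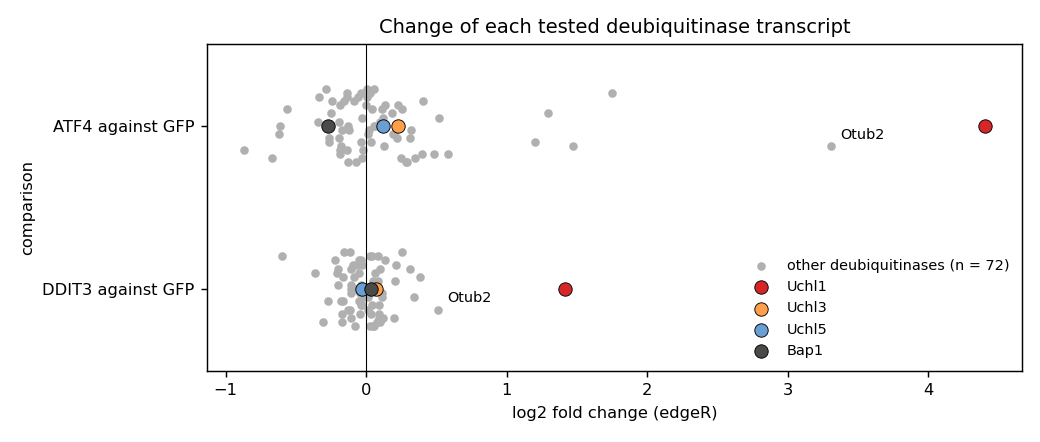
Log2 fold change of each of 76 tested deubiquitinase transcripts in the comparisons of ATF4 and DDIT3 with GFP, which share the GFP libraries (vertical spread within a row only separates the points). Uchl1 lies at 4.40 and 1.41, to the right of all others, with Otub2 next at 3.31 and 0.51, and Uchl3, Uchl5 and Bap1 lie between -0.27 and 0.23.

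The genes for ubiquitin itself did not pass the test. Of the ubiquitin genes and the E1 enzymes that activate ubiquitin, 6 in all, 0 passed edgeR in ATF4 against GFP (0 at an unadjusted p below 0.05, 0 with DESeq2), and 0 in DDIT3 against GFP by the same counts. Of all tested genes 32.2% passed edgeR in the first comparison and 0.863% in the second. Ubb, a polyubiquitin gene, stood at 3.74 ± 1.24 CPM in GFP and 4.89 ± 0.454 in ATF4 (SD, n = 5; log2 fold change 0.38 ± 0.24, edgeR adjusted p = 0.244). Ubiquitin genes share near-identical repeats and copies, so their levels are uncertain.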

How the data were processed

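Per the submitters' processing notes, reads were processed with STAR, featureCounts and DESeq2 or DESeq on mm10. Their versions and the annotation: not given in the sources used here. Whole-number read counts per gene were deposited, and the gene length column (another unit) that the authors deposited with them gave CPM per kb. Per the file headers, the authors' own tables of both comparisons with GFP hold a mean signal, a log2 fold change with its error, a test score and p-values.

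Counts of 15 libraries were fitted together with edgeR 4.0.16 (R 4.3.3): TMM factors, filterByExpr, robust quasi-likelihood test by group with 12 residual degrees of freedom, Benjamini-Hochberg adjustment over 11814 genes and a threshold of 0.05. Log2 CPM used a prior count of 2, DESeq2 was version 1.42.0, and Biopython 1.88 aligned transcripts. Sample titles gave each library's group and number. On simulated counts for ATF4 against GFP (11814 genes, libraries drawn independently), changes were planted in 200 genes, none of low mean level. Of the planted rises, 48% of 1.5-fold, 84% of 2-fold and 100% of 4-fold were recovered, which does not cover genes of low level. Libraries of 1 group differed beyond counting noise (chi-square per degree of freedom 8.60 to 50.4). Deviations of same-numbered libraries correlated at 0.205 to 0.511 for DDIT3 and GFP, 0.135 to 0.497 for ATF4 and DDIT3, and 0.078 to 0.386 for ATF4 and GFP. Same-numbered libraries thus resembled each other, but the labels do not say what the numbers stand for. The main fit did not use them, and the replicate block did. With the block 5097 genes were called in ATF4 against GFP, against 3801 in the main fit. Named genes were the 4 members, up to 4 called genes of lowest p per list and comparison, a few defining genes, and the 6 genes most correlated with Uchl1; a few of these are not reported here. Members and lists were chosen with earlier results of these data known. Alternatives were other factors, DESeq2, no filter, 2 groups alone, a replicate block, each library left out, male libraries alone and, added after seeing the data, both libraries numbered 2 of ATF4 and DDIT3 left out.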

Additional observations from a re-analysis of the deposited data

Results flagged for a closer look

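Uchl3 in GFP replicate 1 stood at 11.9 CPM, while the other 4 GFP libraries held 20.5 to 22.1 CPM. The gap to the nearest library was 0.844 of the group's range, above the 95% critical value of Dixon's test for 5 samples (0.71). It was the 1 such value among 12 groups examined (4 members in 3 groups), and chance gives about 1 in 20.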

How the results depend on the processing

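The log2 fold change of Uchl1 moved by less than the spread between replicates under all 22 alternatives (4.33 to 4.49 for ATF4 against GFP, 1.34 to 1.502 for DDIT3 against GFP, 2.95 to 3.06 for ATF4 against DDIT3). Bap1 in ATF4 against GFP kept its direction but not its call with no filter (-0.29), with only the 2 groups compared in the fit (-0.28), in male libraries (-0.12) and without both libraries numbered 2 (-0.24), and ran from -0.32 to -0.20 with single libraries left out. Against DDIT3 it was -0.29 without both libraries and ran from -0.35 to -0.27. The replicate block kept both Bap1 calls (-0.27 and -0.31, edgeR adjusted p = 0.00447 and 0.00176) and changed no other call of a member. For DDIT3 against GFP, the sign of values near 0 turned with single libraries left out (Bap1 -0.009 to 0.104, Uchl3 -0.063 to 0.131, Uchl5 -0.092 to 0.031), and the 102 genes called became 228 with DESeq2, 322 with the replicate block and 55 to 146 with single libraries left out. The block called 1 deubiquitinase outside the UCH family there, Otub2. In ATF4 against GFP the block raised the calls over all 11814 genes from 3801 to 5097. Among the 72 other deubiquitinases 13 rose and 8 fell with it, against 11 and 5 in the main fit. With the block, the BAP1 partners held 2 risers and 1 faller, the NEDD8 pathway 1 and 2, and the UCHL5 partners 5 and 0. The causes were not tested. Depth limits Uchl1 most in GFP, where it had 202 counts.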

Other observations

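After each group's mean was subtracted, which removes the difference between the vectors, the genes that varied most like Uchl1 over the 15 libraries were others than those named by level: Adra1b, an alpha-adrenergic receptor (Pearson correlation 0.815), Zfp282 (0.806), Dek (0.796), Hpgd (0.786) and Casp2 (0.782). These are the 5 highest of 11814 genes and are given as a description. Among so many genes and only 15 libraries, some high correlations arise by chance. Hpgd was also low, at 1.53 CPM in GFP, 1.31 in DDIT3 and 1.48 in ATF4. By the same measure Uchl3 stood at -0.473, Uchl5 at 0.069 and Bap1 at -0.219.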
